A study of Mus musculus with 12 samples.

Results

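The pluripotency network was followed as 37 mouse genes: the core factors Pou5f1, Sox2 and Nanog, their partner transcription factors and chromatin regulators, RNA-binding proteins, secreted signals, and growth and surface markers of pluripotent stem cells. Each member was found by its gene symbol, and a gene with several probe sets was read from the one with the highest mean over all arrays. Of the 37 members, 36 were measured among 22180 genes tested. Eras, a Ras-like protein of embryonic stem cells, lay only on a probe set shared with another gene and was not measured. The cells were mouse embryonic fibroblasts, connective tissue cells grown from embryos, profiled on 1-colour Affymetrix arrays during reprogramming with Pou5f1 (Oct4), Sox2, Klf4 and Myc (OSKM). The study asked how cells without Gdap1, which encodes an outer mitochondrial membrane protein, compare with wild-type cells early in this process. The 4 groups had 3 arrays each: Gdap1-null (KO) cells at day 4, KO cells at day 0, wild-type (WT) cells at day 4 and WT cells at day 0. All were grown in DMEM with serum. The treatment text is the same for every group: overnight transduction, mock or with OSKM, then more days of growth. Which of these applied to the day 0 cells is not stated. The day 4 change therefore holds reprogramming, transduction and time in culture together. Neither the Gdap1 allele nor the strain is given in the sources used here. Nothing in the labels tells whether arrays of 1 group are separate cultures or animals. The p-values then measure only the spread between these samples, which may be technical.

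Pluripotent cells keep their state through a self-reinforcing circuit in which Pou5f1, Sox2 and Nanog bind each other's genes and those of partner factors such as Esrrb and Tfcp2l1. In fibroblasts these genes are silent or low, and in reprogramming the endogenous copies are generally switched on late and in few cells, after fibroblast genes have fallen and epithelial genes have risen. Some genes used as pluripotency markers, such as Fbxo15, can be read earlier than Nanog, and some members, such as Tbx3, Jarid2 and Rif1, also work in fibroblasts and other somatic cells.

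Levels were log2 probe-set values, with array medians of 5.22 to 5.32 over the genes tested. WT day 4 array 1 stood apart, with a mean Pearson correlation across genes of 0.987 with its own group, against 0.991 or more for the other 11 arrays. Calls on members that were lost or gained without it are given beside the result. Fibroblast markers were high in every group: Col1a1 averaged 11.26 in KO day 4, 11.81 in KO day 0, 11.30 in WT day 4 and 11.95 in WT day 0 cells. The 8 macrophage markers moved with genotype: 7 of 8 were lower in KO than in WT cells at day 4 (12.4% of all genes) and 7 of 8 at day 0 (3.12% of all genes). Their mean level was 5.29 to 5.30 in KO day 4, 5.15 to 5.30 in KO day 0, 6.35 to 7.28 in WT day 4 and 6.52 to 6.60 in WT day 0 arrays, with the 7.28 in WT day 4 array 1. The part of these markers in the genotype differences below was not tested. Gdap1 did not pass between KO and WT cells on its probe set (0.16 ± 0.12 at day 4, adjusted p = 0.395, and -0.08 ± 0.12 at day 0, adjusted p = 0.831), which lay near the floor and checks nothing about the genotype.

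Some promoters of the members hold letters that the core factors read. The promoters of Zfp296 and Nanog are shown because the first gene rose here and the second did not pass. Of the 37 members, 26 had a promoter in the RefSeq table (build GRCm38.p6), and the 250 bases before each start were searched on both strands for 3 motifs. Some members had several promoters. Members are counted as genes and the background as promoters, so the shares are not in like units. The octamer ATGCAAAT, read by Pou5f1 and other POU factors, was found in 1.6% of all 32851 promoters of this length, and among the members in Zfp296 and Zfp42. The composite Sox and Oct motif, searched as CATTGT, any base and ATGC in a row, was found in 0.0578% of all promoters, and among the members in Nanog alone. It shares ATGC with the octamer but does not hold it whole. The E-box CACGTG, read by Myc and other factors, was found in 6.02% of all promoters, and among the members in Dnmt3l and Lin28b. The promoter of Zfp296 lies on the plus strand at chr7:19577037-19577286, and the capitals mark the octamer, in reverse, beginning 111 bases before the start. The promoter of Nanog lies on the plus strand at chr6:122707239-122707488, and the capitals mark the composite motif, in reverse, beginning 72 bases before the start.
Zfp296: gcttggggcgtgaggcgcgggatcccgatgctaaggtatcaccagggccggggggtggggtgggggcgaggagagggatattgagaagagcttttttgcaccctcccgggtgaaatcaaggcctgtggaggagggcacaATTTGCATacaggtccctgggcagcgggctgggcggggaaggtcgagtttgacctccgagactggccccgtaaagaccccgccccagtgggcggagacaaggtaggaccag
Nanog: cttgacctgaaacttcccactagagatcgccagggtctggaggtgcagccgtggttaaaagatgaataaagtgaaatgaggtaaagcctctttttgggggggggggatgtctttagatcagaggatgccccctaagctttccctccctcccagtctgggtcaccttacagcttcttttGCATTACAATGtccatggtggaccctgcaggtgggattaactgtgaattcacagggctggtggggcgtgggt
Zfp296 rose at day 4 in both genotypes. Zfp42, the other member with the octamer, and Nanog did not pass in either, with the values given below. A match describes the letters and shows no binding.

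At day 4 most members of the network did not pass the test. In KO cells 8 of 36 members rose and 3 fell at an adjusted p under 0.05, and in WT cells 6 rose and 2 fell. The 6 that rose in both genotypes were Fbxo15, Sall1, Zfp296, Jarid2, Rif1 and Tfcp2l1, and the 2 that fell in both were Tbx3 and Sox15. KO cells added rises of Pou5f1 and L1td1 and a fall of Lin28a. The 11 members called in KO cells were 30.6% of those measured, against 30.8% of all genes tested, and the 8 called in WT cells were 22.2%, against 22.9% of all genes. By direction, 22.2% of members and 13.8% of all genes rose in KO cells, and 16.7% of members and 11.1% of all genes rose in WT cells. Falls took in 8.33% of members and 16.9% of all genes in KO cells, and 5.56% and 11.7% in WT cells. The median change of the members was 0.06 in KO cells and 0.08 in WT cells, beside -0.01 over all genes in both. Without regard to sign, the median change of the members was 0.18 in KO and 0.14 in WT cells, which are also the values over all genes. A change of at least 2-fold was seen in 2 members in KO cells (Tbx3 and Fbxo15), against 3.76% of all genes, and in 0 members by limma in WT cells, against 3.51%. Arrays read the RNA of the whole culture, so fewer cells of a type and less RNA per cell cannot be told apart.

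Of the core factors, Pou5f1 passed in KO cells, and Sox2 and Nanog passed in neither genotype. Pou5f1, the POU factor that is also one of the transduced genes, had levels of 5.33, 5.52 and 5.50 in KO day 4 cells, against 5.23, 4.96 and 5.03 in KO day 0 cells. WT cells had 5.37, 5.29 and 5.40 at day 4, against 5.22, 5.21 and 5.34 at day 0. All 3 KO day 4 arrays lay above all KO day 0 arrays, while the WT arrays overlapped. The rise was 1.30-fold in KO cells (log2 change 0.38 ± 0.09, SE of the limma model, n = 3 in each group, adjusted p = 0.00541), and the WT value was 0.10 ± 0.09 (adjusted p = 0.516). The difference between these changes did not pass (0.28 ± 0.13, adjusted p = 0.242).

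Sox2, the HMG-box partner of Pou5f1 and also transduced, had 4.24, 4.48 and 4.42 in KO day 4 cells, against 4.79, 4.38 and 4.27 in KO day 0 cells. The WT levels were 4.31, 4.40 and 4.37 at day 4, against 4.07, 4.15 and 4.30 at day 0. The WT arrays did not overlap, by a gap at the second decimal, and the KO arrays did. Its changes were -0.10 ± 0.12 in KO cells (95% interval -0.36 to 0.17, adjusted p = 0.599) and 0.19 ± 0.12 in WT cells (-0.08 to 0.45, adjusted p = 0.338). Nanog, the homeodomain factor that stabilises the pluripotent state and was not transduced, had 4.81, 4.75 and 4.92 in KO day 4 cells, against 4.57, 4.68 and 4.62 in KO day 0 cells. Its levels in WT cells were 4.52, 4.62 and 4.92 at day 4, against 4.43, 4.76 and 4.59 at day 0. The KO arrays of the 2 days did not overlap and the WT arrays did. Its changes were 0.20 ± 0.11 in KO cells (95% interval -0.04 to 0.44, adjusted p = 0.211) and 0.09 ± 0.11 in WT cells (-0.15 to 0.33, adjusted p = 0.645). In neither genotype do these intervals reach a 2-fold change of Sox2 or Nanog on the array scale.

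The other transduced factors read differently. Klf4, a Krüppel-like factor, rose by 3.28 ± 0.09 in KO cells (adjusted p = 2.92e-10) and by 2.94 ± 0.09 in WT cells (adjusted p = 9.02e-10). Myc fell by 0.94 in KO cells (adjusted p = 4.92e-06) and by 1.02 in WT cells (adjusted p = 3.06e-06). Whether any of these probe sets reads the transduced copies is not given in the sources used here, so the levels of Pou5f1, Sox2, Klf4 and Myc cannot be split into endogenous and transduced RNA.

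**Figure D1:**
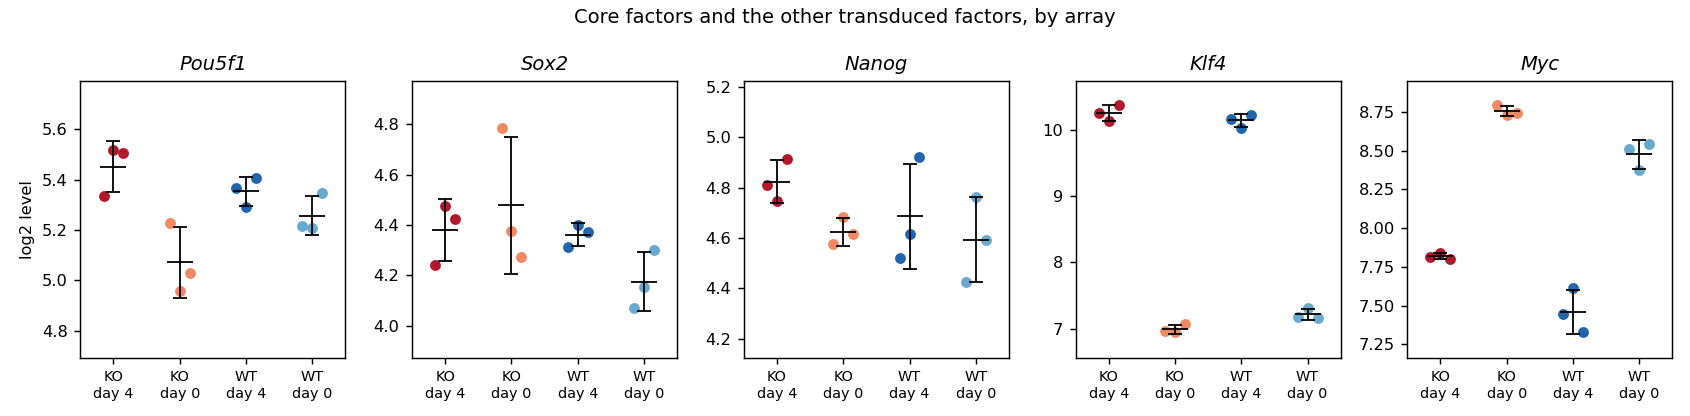
Log2 levels of Pou5f1, Sox2, Nanog, Klf4 and Myc in each of the 12 arrays, by group, with the group mean and SD (n = 3) as bars; each panel has its own axis, which does not start at 0. Klf4 lies above 10 in all 6 day 4 arrays and under 7.4 in all 6 day 0 arrays, while the groups of Sox2 and Nanog lie within a range of less than 1 on the log2 scale.

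Among the 14 network transcription factors, 3 rose and 2 fell in KO cells (13.8% and 16.9% of all genes). The counts were the same in WT cells (11.1% and 11.7% of all genes). Zfp296, a zinc finger factor of pluripotent and germ cells, had 6.49, 6.61 and 6.63 in KO day 4 cells, against 5.71, 5.86 and 5.92 in KO day 0 cells. WT arrays gave 6.64, 6.03 and 6.36 at day 4, against 5.48, 5.53 and 5.67 at day 0. Every day 4 array lay above every day 0 array of either genotype. Zfp296 rose 1.68-fold in KO cells (0.75 ± 0.13, adjusted p = 0.000721) and 1.73-fold in WT cells (0.79 ± 0.13, adjusted p = 0.000663).

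Sall1, a zinc finger repressor related to Sall4 and active in kidney and limb development, had 5.99, 5.67 and 6.25 in KO day 4 cells, against 5.60, 5.60 and 5.23 in KO day 0 cells. WT cells had 6.08, 6.04 and 6.08 at day 4, against 4.97, 5.34 and 5.23 at day 0. The days did not overlap in either genotype, but the lowest KO day 4 array was within 0.1 of the highest KO day 0 array. Sall1 rose by 0.49 ± 0.15 in KO cells (adjusted p = 0.0204) and by 0.89 ± 0.15 in WT cells (adjusted p = 0.000666). The KO call was lost without KO day 0 array 3 (adjusted p = 0.0956), KO day 4 array 1 (0.0564) or KO day 4 array 3 (0.0913), and the difference between the changes did not pass (-0.39 ± 0.21, adjusted p = 0.331).

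Tfcp2l1, a Grainyhead-family factor of the naive pluripotent state, had 5.24, 4.76 and 5.22 in KO day 4 cells, against 4.67, 4.58 and 4.38 in KO day 0 cells. The WT levels were 5.54, 4.82 and 5.10 at day 4, against 4.70, 4.67 and 4.54 at day 0. Array 2 was the lowest of both day 4 groups, and the days did not overlap. Tfcp2l1 rose by 0.53 ± 0.17 in KO cells (adjusted p = 0.0301) and by 0.52 ± 0.17 in WT cells (adjusted p = 0.0422). Both calls depended on single arrays: the WT call was lost on leaving out any 1 of 5 WT arrays or of 2 KO day 0 arrays, with a value of 0.33 without WT day 4 array 1 (adjusted p = 0.143). It was also lost with centring on array medians (0.47, adjusted p = 0.0567), with array weights (0.38, adjusted p = 0.0668) and in a fit to the WT groups alone (adjusted p = 0.0671). The KO call was lost on leaving out any 1 of 4 KO arrays (adjusted p from 0.0613 to 0.113).

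Tbx3, a T-box repressor that takes part in naive pluripotency and in limb and mammary development, had the largest fall of any member in both genotypes. It had 7.08, 7.32 and 7.07 in KO day 4 cells, against 8.30, 8.37 and 8.25 in KO day 0 cells. Its levels in WT cells were 6.83, 6.89 and 6.84 at day 4, against 7.40, 7.42 and 7.38 at day 0. The 4 groups did not overlap at all, with KO day 0 highest and WT day 4 lowest. Tbx3 fell by 1.15 ± 0.08 in KO cells (2.22-fold, adjusted p = 8.56e-07) and by 0.54 ± 0.08 in WT cells (1.46-fold, adjusted p = 0.000292). The fall was larger in KO cells by the test of the difference itself (-0.61 ± 0.11, KO minus WT, adjusted p = 0.0127).

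Sox15, an HMG-box factor close to Sox2 in its DNA binding and expressed in muscle progenitors, had 4.12, 4.20 and 4.07 in KO day 4 cells, against 4.68, 4.30 and 4.67 in KO day 0 cells. WT arrays gave 4.30, 4.31 and 4.05 at day 4, against 4.50, 4.74 and 4.59 at day 0. All day 4 arrays lay below the day 0 arrays of their genotype. Sox15 fell by 0.42 ± 0.11 in KO cells (adjusted p = 0.0126) and by 0.39 ± 0.11 in WT cells (adjusted p = 0.0246). The KO call was lost without KO day 0 array 1 (adjusted p = 0.0596) or array 3 (0.0579). In WT cells the call was lost on leaving out day 0 array 2 (0.107), day 0 array 3 (0.0561) or day 4 array 3 (0.103).

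Nr5a2, an orphan nuclear receptor that can stand in for Pou5f1 in reprogramming, passed only when both genotypes were averaged. That comparison called 13 of 36 members (36.1%, against 36.2% of all genes): the 11 of the KO comparison, Nr5a2 and Gdf3. Of these, 9 rose (25%, against 16.8% of all genes) and 4 fell (11.1%, against 19.4%), and 1, Fbxo15, moved at least 2-fold (2.78%, against 3.08%). Nr5a2 had 3.82, 3.58 and 3.79 in KO day 4 cells, against 3.97, 4.02 and 3.78 in KO day 0 cells. WT cells had 3.83, 3.65 and 3.61 at day 4, against 4.06, 3.89 and 3.99 at day 0. The KO arrays overlapped and the WT arrays did not, and the mean change was -0.24 ± 0.07 (adjusted p = 0.0155). Without WT day 4 array 1, Nr5a2 passed in WT cells too (-0.35, adjusted p = 0.0246).

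The remaining 8 factors, Esrrb, Nr0b1, Prdm14, Zfp42 (Rex1), Zscan10, Sall4, Otx2 and Utf1, passed in no comparison of the main model. Esrrb, the orphan nuclear receptor at the centre of the naive network, changed by 0.13 ± 0.08 in KO cells (adjusted p = 0.287) and by -0.11 ± 0.08 in WT cells (adjusted p = 0.394). Zfp42, a classical marker of embryonic stem cells, changed by 0.04 ± 0.09 (95% interval -0.14 to 0.23) in KO cells and by 0.07 ± 0.09 (-0.12 to 0.25) in WT cells. Otx2, a factor of the primed state, was at -0.21 ± 0.10 in KO cells (adjusted p = 0.146) and 0.12 ± 0.10 in WT cells (adjusted p = 0.481). Without KO day 0 array 1, Otx2 passed by limma in KO cells (-0.31, adjusted p = 0.0484). Sall4 had a second probe set, at 2.68 to 2.93 in all arrays, that was not used.

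**Figure D2:**
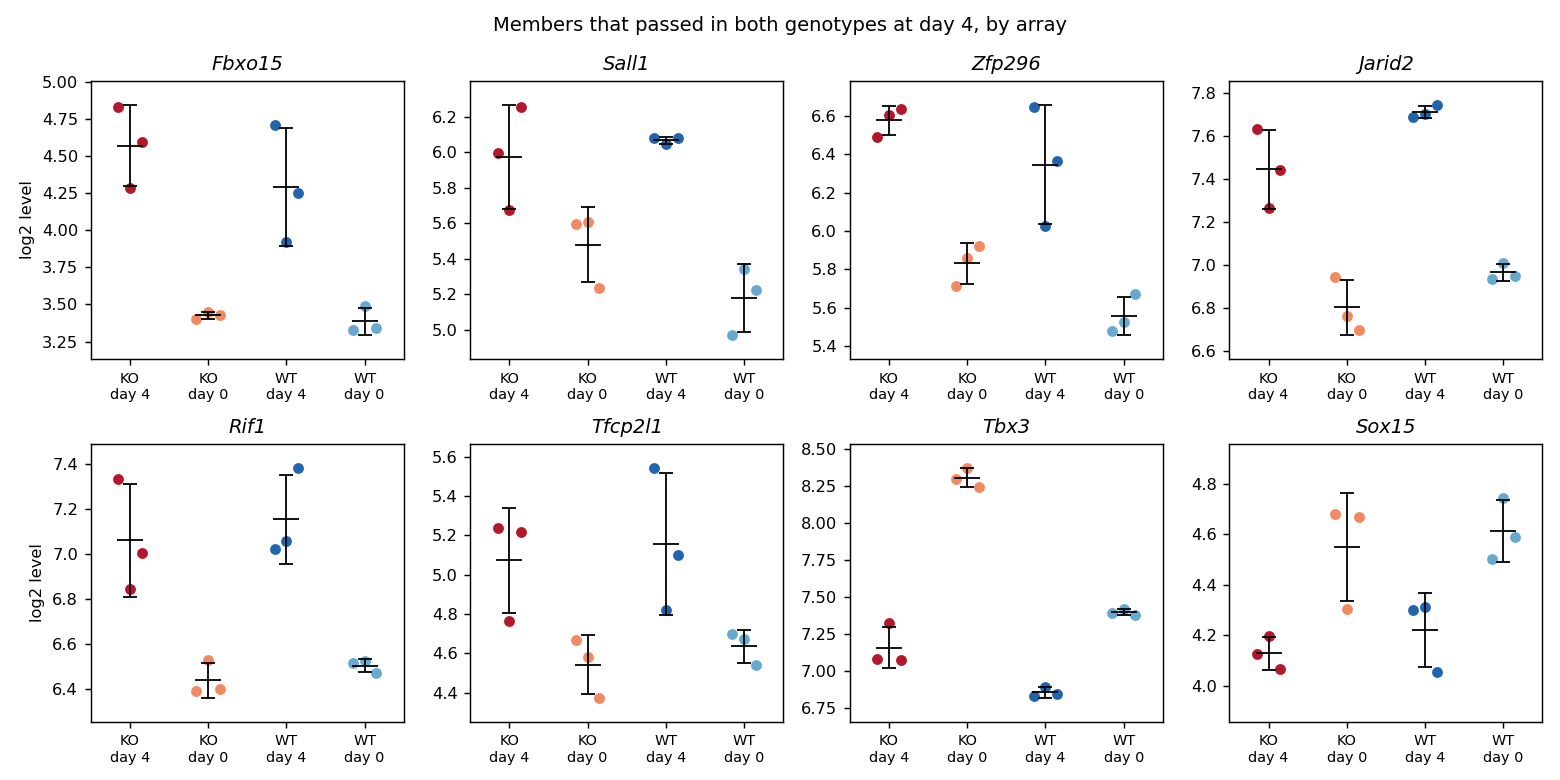
Log2 levels of the 8 members that passed in both genotypes at day 4, in each of the 12 arrays, with the group mean and SD (n = 3) as bars; each panel has its own axis, which does not start at 0. In the 6 members that rose, the day 4 points lie above the day 0 points of the same genotype, and in Tbx3 and Sox15 they lie below.

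Of the 6 chromatin regulators, Jarid2 and Rif1 rose in both genotypes and the other 4 did not pass. Over all genes 13.8% rose in KO and 11.1% in WT cells. Jarid2, an accessory subunit that guides Polycomb repressive complex 2 to its targets, had 7.63, 7.26 and 7.44 in KO day 4 cells, against 6.95, 6.76 and 6.70 in KO day 0 cells. The WT levels were 7.69, 7.70 and 7.74 at day 4, against 6.94, 7.01 and 6.95 at day 0. Day 4 arrays lay above day 0 arrays throughout, and the WT arrays were within 0.08 of each other on each day. Jarid2 rose by 0.64 ± 0.10 in KO cells (adjusted p = 0.000248) and by 0.74 ± 0.10 in WT cells (adjusted p = 0.000105).

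Rif1, a protein of replication timing and DNA break repair that is abundant in embryonic stem cells, had 7.34, 6.84 and 7.01 in KO day 4 cells, against 6.39, 6.53 and 6.40 in KO day 0 cells. Its levels in WT cells were 7.02, 7.06 and 7.38 at day 4, against 6.52, 6.53 and 6.47 at day 0. The days did not overlap in either genotype. Rif1 rose by 0.62 ± 0.12 in KO cells (adjusted p = 0.0019) and by 0.65 ± 0.12 in WT cells (adjusted p = 0.00186). Dppa2 and Dppa4, partner proteins that keep bivalent promoters from gaining DNA methylation, Dppa3 (Stella), a protector of maternal methylation, and Dnmt3l, the cofactor of the de novo methyltransferases, had changes from -0.37 (Dnmt3l) to 0.15 (Dppa3) in KO cells and from -0.13 (Dppa2) to -0.05 (Dppa3) in WT cells. Dnmt3l passed in the average over genotypes once WT day 4 array 1 was left out (-0.31, adjusted p = 0.0467).

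Of the 5 RNA-binding proteins, L1td1 rose and Lin28a fell in KO cells (13.8% and 16.9% of all genes). In WT cells 0 passed by limma, against 22.9% of all genes (0 also at an unadjusted p under 0.05). L1td1, derived from a LINE-1 open reading frame and expressed in pluripotent and germ cells, had 5.21, 4.94 and 5.19 in KO day 4 cells, against 4.60, 4.39 and 4.10 in KO day 0 cells. WT arrays gave 4.80, 4.52 and 4.46 at day 4, against 4.36, 4.45 and 4.34 at day 0. The 3 KO day 4 arrays were the highest of all 12. L1td1 rose by 0.75 ± 0.13 in KO cells (adjusted p = 0.00067), and its WT value was 0.21 ± 0.13 (adjusted p = 0.309). The difference between the changes was 0.54 ± 0.18 and did not pass (adjusted p = 0.12), but it passed without WT day 4 array 1 (0.65, adjusted p = 0.038).

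Lin28a, which blocks maturation of the let-7 miRNAs, had 4.55, 3.93 and 4.71 in KO day 4 cells, against 5.02, 4.70 and 4.84 in KO day 0 cells. WT cells had 4.55, 4.52 and 4.36 at day 4, against 4.73, 4.55 and 4.67 at day 0. The KO arrays of the 2 days overlapped by a narrow margin, and KO day 4 array 2 lay well under the rest. Lin28a fell by 0.46 ± 0.16 in KO cells (adjusted p = 0.0492), just inside the threshold. This call was lost on leaving out any array but WT day 4 array 1 and KO day 4 array 3 (adjusted p from 0.0508 to 0.168), with a value of -0.23 without KO day 4 array 2, and in a fit to the KO groups alone (adjusted p = 0.106). The average over genotypes (-0.32, adjusted p = 0.0483) was likewise lost without any 1 of 9 arrays (adjusted p from 0.051 to 0.114), among them WT day 4 array 1 (-0.33, adjusted p = 0.051). Its WT value was -0.17 ± 0.16 (adjusted p = 0.536), and the difference between the changes did not pass (-0.29 ± 0.23, adjusted p = 0.561). Lin28b, the paralogue of Lin28a, Trim71, a let-7 target with ubiquitin ligase activity, and Dppa5a, a KH-domain protein, had changes of 0.08 to 0.13 in KO cells and of -0.06 to 0.15 in WT cells and did not pass.

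Secreted signals and their co-receptor did not pass in either genotype. By limma 0 of 5 members were called, against 30.8% of all genes in KO and 22.9% in WT cells. At an unadjusted p under 0.05 there were 1 in KO cells (Gdf3) and 0 in WT cells. Fgf4, which drives embryonic stem cells toward differentiation through ERK, was at 0.22 ± 0.13 in KO cells (adjusted p = 0.221) and 0.12 ± 0.13 in WT cells (adjusted p = 0.602). Without KO day 4 array 2, Fgf4 passed by limma in KO cells (0.37, adjusted p = 0.0277) and in the average over genotypes (0.24, adjusted p = 0.0252). Leaving out that array also made Fgf4 higher in KO than in WT cells at day 4 (0.37, adjusted p = 0.0442). Nodal, a TGF-beta ligand, its antagonist Lefty1 and its co-receptor Tdgf1 (Cripto) had changes from -0.11 (Nodal) to 0.08 (Lefty1) in KO cells and from -0.04 (Nodal) to 0.21 (Lefty1) in WT cells. Gdf3, another TGF-beta family ligand, had 4.25, 4.16 and 3.98 in KO day 4 cells, against 3.91, 3.80 and 3.93 in KO day 0 cells. The WT levels were 4.12, 3.89 and 4.01 at day 4, against 3.90, 3.94 and 3.71 at day 0. The KO arrays did not overlap and the WT arrays did. Without KO day 4 array 3, Gdf3 passed by limma in KO cells (0.33, adjusted p = 0.0323). Averaged over both genotypes Gdf3 rose by 0.20 ± 0.07 (adjusted p = 0.0339), a call lost under 9 alternatives besides the 2-fold minimum, among them centring on array medians (0.15, adjusted p = 0.104) and leaving out WT day 4 array 1 (0.17, adjusted p = 0.0683).

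Fbxo15 gave the largest rise of any member in both genotypes. It encodes an F-box protein that embryonic stem cells can do without, and its locus was the selection marker when induced pluripotent cells were first made from mouse fibroblasts. It had 4.83, 4.28 and 4.60 in KO day 4 cells, against 3.40, 3.45 and 3.43 in KO day 0 cells. Its levels in WT cells were 4.71, 3.92 and 4.25 at day 4, against 3.32, 3.49 and 3.34 at day 0. Day 0 arrays lay close together and every day 4 array was at least 0.4 above all of them, with the widest spread in WT day 4. Fbxo15 rose 2.21-fold in KO cells (1.14 ± 0.17, adjusted p = 0.000244) and 1.88-fold in WT cells (0.91 ± 0.17, adjusted p = 0.00177). Without WT day 4 array 1 the WT rise was 0.70 (adjusted p = 0.0031).

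Fut4, a fucosyltransferase listed with the surface markers, had 5.46, 5.56 and 5.45 in KO day 4 cells, against 5.49, 5.72 and 5.47 in KO day 0 cells. WT arrays gave 5.52, 4.85 and 5.09 at day 4, against 5.16, 4.93 and 4.78 at day 0. Days overlapped in both genotypes, and the day 4 changes were -0.07 ± 0.15 in KO cells (adjusted p = 0.771) and 0.20 ± 0.15 in WT cells (adjusted p = 0.422). Tcl1, a coactivator of Akt, was at 0.13 ± 0.10 in KO cells (adjusted p = 0.37) and -0.10 ± 0.10 in WT cells (adjusted p = 0.572).

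**Figure D3:**
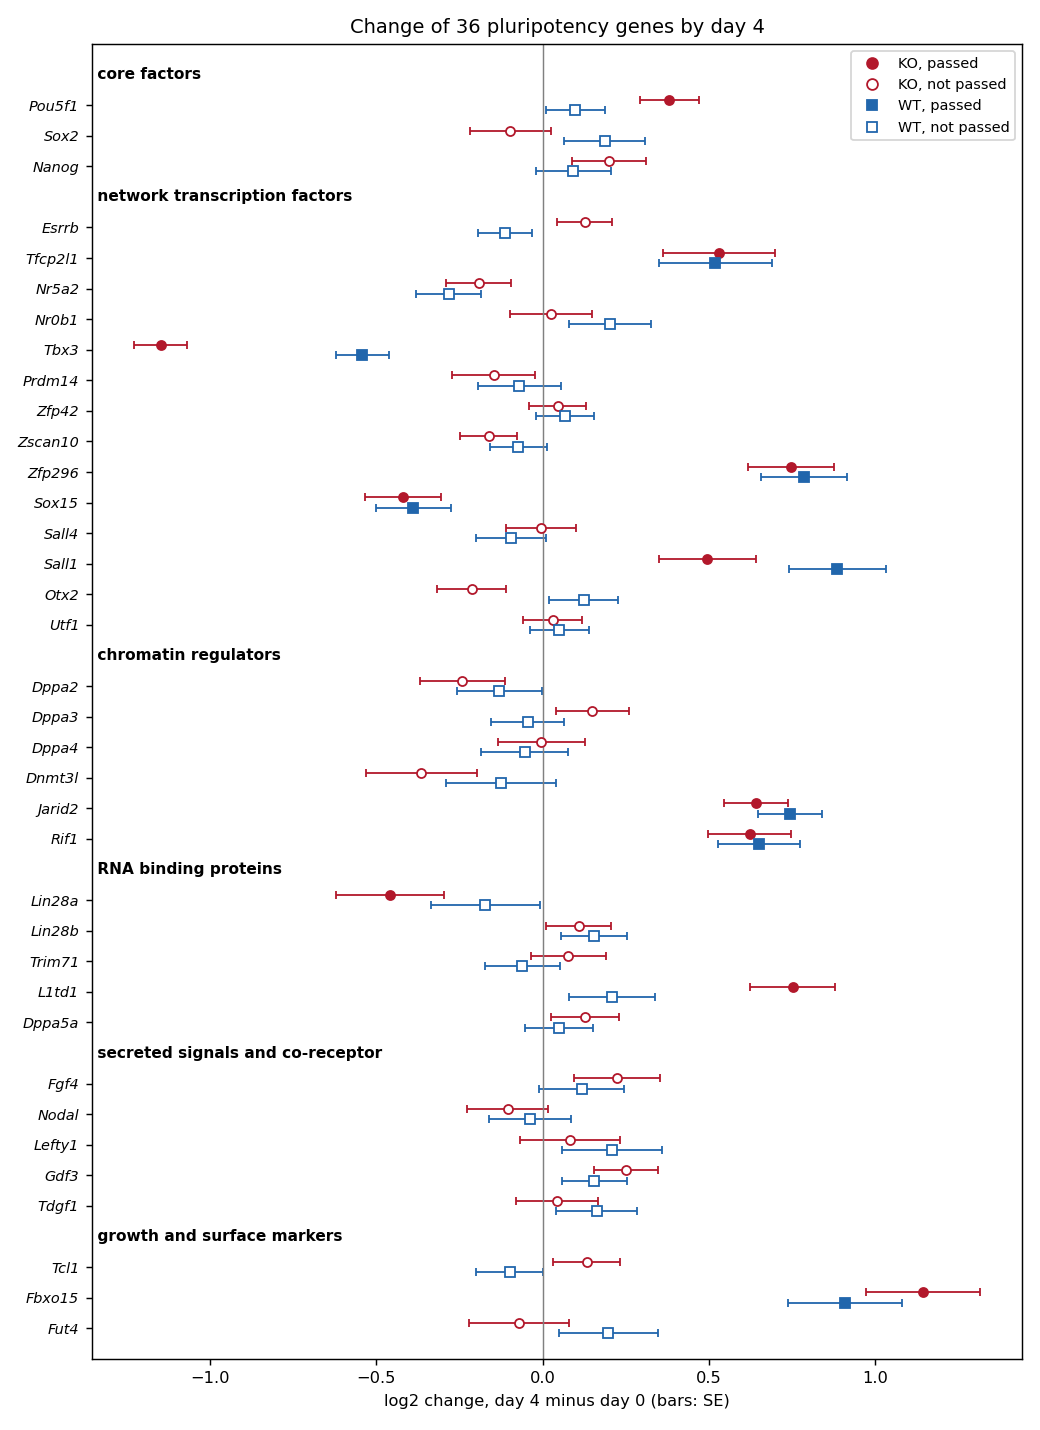
Log2 change at day 4 against day 0 for the 36 measured members, by role, in KO cells (circles) and WT cells (squares); bars are SE from the model with n = 3 arrays per group, and filled symbols passed an adjusted p of 0.05. The filled symbols to the right are led by Fbxo15, at 1.14 in KO and 0.91 in WT cells, and those to the left by Tbx3, at -1.15 and -0.54.

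The level at which a member was read bears on how far a change can be seen. Olfactory receptor genes, which fibroblasts are not known to use, served as a description of low probe sets: 1088 of them had a median level of 2.67 and a 95th percentile of 4.35. Of the 36 members, 19 had a 12-array mean above that percentile and 17 did not. Probe sets differ in their affinity, so levels were not compared between genes, and a level in this range says neither that a gene is silent nor that it is expressed. Among the members called at day 4 in both genotypes, Fbxo15 had its mean over all arrays at 3.92, under that percentile. The other 7 lay above it, Sox15 only just, at 4.38. Nr5a2 and Gdf3, called only in the average over genotypes, were under that percentile at 3.83 and 3.97. Across the comparisons 22 members passed in none, with day 4 changes from -0.37 to 0.22 and array levels from 2.87 to 6.16.

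The rising members shared an order among the day 4 arrays. Of the 6 that rose in both genotypes, KO day 4 array 2 was the lowest of its group in 5 and WT day 4 array 2 in 4, and neither was the highest in any. The mean level over the 6 was 6.25, 5.91 and 6.19 in KO cells at day 4, and 6.28, 5.93 and 6.15 in WT cells. Klf4 was also lowest in array 2 of each day 4 group, with 10.27, 10.14 and 10.38 in KO and 10.18, 10.04 and 10.23 in WT cells. The mean of 14 fibroblast markers was highest in the same arrays, with 10.35, 10.62 and 10.36 in KO day 4 and 10.39, 10.50 and 10.26 in WT day 4 cells, against 10.63 to 10.66 in KO day 0 and 10.64 to 10.66 in WT day 0 cells. Of these 14 markers 2 rose and 7 fell in KO cells (13.8% and 16.9% of all genes), and 1 rose and 8 fell in WT cells (11.1% and 11.7% of all genes). The part of this spread between arrays in the size of the changes was not tested.

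Marker lists of 5 other cell types held 45 measured entries, with Tfap2c counted in both the germ cell and the trophoblast list. Of these entries 6 passed in KO cells (13.3%, against 30.8% of all genes) and 7 in WT cells (15.6%, against 22.9%). Among 11 germ cell markers, 1 passed in KO cells (Dnd1, lower) and 1 in WT cells (Ddx4, lower). Their mean level was 3.84 to 3.92 in KO day 4, 3.90 to 3.94 in KO day 0, 3.74 to 3.86 in WT day 4 and 3.85 to 3.94 in WT day 0 arrays. Of 10 trophoblast markers 0 passed in KO cells by limma (2 higher and 2 lower at an unadjusted p under 0.05) and 1 rose in WT cells, of 8 endoderm markers 1 fell in each genotype, and of 8 neural progenitor markers 2 rose in KO cells and 1 in WT cells. Of 8 endothelial markers 2 fell in each genotype and 1 rose in WT cells. Emcn, a sialomucin of endothelial cells, changed by -0.75 ± 0.10 in KO cells (adjusted p = 0.000111) and by -2.11 ± 0.10 in WT cells (adjusted p = 5.09e-08), and the changes differed (1.36 ± 0.14, KO minus WT, adjusted p = 0.000546).

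Promoter CpG content varied among the members that moved. Over the same 250 bases, CG occurred a median of 6 times in all promoters, with quartiles of 2 and 16. Members that rose had 30, 25 and 13 in the 3 promoters of Sall1, 23 and 22 in the 2 of Jarid2, 16 in Tfcp2l1, 14 in Zfp296 and 11 in L1td1, all above that median, and 8 and 6 in the 2 of Pou5f1. Members that fell had 7 in Lin28a, 6 and 2 in Nr5a2 and 5 in Sox15. Members that did not pass covered the same span, with 27 in Sox2, 21 in Fgf4 and 3 and 2 in Nanog. Promoters of Fbxo15, Rif1, Tbx3 and Gdf3 were not matched.

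KO and WT cells at day 4 differed in 2 of 36 members (5.56%, against 20.7% of all genes). Both were higher in KO cells (8.34% of all genes were higher and 12.4% lower), and neither by 2-fold (1.49% of all genes). L1td1 was higher by 0.52 ± 0.13 (adjusted p = 0.0126), with KO arrays at 4.94 to 5.21 and WT arrays at 4.46 to 4.80. Tbx3 was higher by 0.30 ± 0.08 (adjusted p = 0.0178), with KO arrays at 7.07 to 7.32 and WT arrays at 6.83 to 6.89. Neither gene's arrays overlapped between genotypes. These calls too depended on single arrays: without WT day 4 array 3 neither passed (L1td1 adjusted p = 0.0577, Tbx3 adjusted p = 0.0549), and Tbx3 also did not pass without KO day 4 array 2 (adjusted p = 0.0591) or in a fit to these groups alone (adjusted p = 0.0999).

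WT day 4 array 1 weighed on this comparison in the other direction. Without it 6 members passed, with Fut4 (0.52, adjusted p = 0.00798), Fbxo15 (0.48, adjusted p = 0.0232), Zfp296 (0.38, adjusted p = 0.0233) and Dppa5a (0.34, adjusted p = 0.018) also higher in KO cells. With all arrays these were 0.34 ± 0.15 for Fut4, 0.28 ± 0.17 for Fbxo15, 0.23 ± 0.13 for Zfp296 and 0.24 ± 0.10 for Dppa5a, and none passed. The share of all genes that passed without WT day 4 array 1 is not given here, so the count of 6 cannot be set against it. With all arrays that share was 20.7%. Jarid2 was at -0.27 ± 0.10 (adjusted p = 0.0703) and Otx2 at -0.23 ± 0.10 (adjusted p = 0.139). Trim71 was at 0.33 ± 0.11 (adjusted p = 0.0596) and Esrrb at 0.23 ± 0.08 (adjusted p = 0.0654). None of these passed, though the arrays of each did not overlap between genotypes. The share of all genes without overlap is not given here. The median difference without regard to sign was 0.09 over the members and 0.15 over all genes. Pou5f1, Sox2 and Nanog differed by 0.10 ± 0.09, 0.02 ± 0.12 and 0.14 ± 0.11 (adjusted p from 0.431 to 0.935).

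At day 0, 2 of 36 members differed (5.56%, against 5.6% of all genes). Both were higher in KO cells (2.48% of all genes were higher and 3.12% lower), and neither by 2-fold (1.23% of all genes). Tbx3 was higher by 0.91 ± 0.08 (1.88-fold, adjusted p = 3.01e-05), with KO arrays at 8.25 to 8.37 and WT arrays at 7.38 to 7.42, and kept its call under the alternatives other than a 2-fold minimum. Fut4 was higher by 0.61 ± 0.15 (1.52-fold, adjusted p = 0.0324), with KO arrays at 5.47 to 5.72 and WT arrays at 4.78 to 5.16. The arrays of both genes did not overlap, but the call of Fut4 was lost without WT day 0 array 2 or 3 or any single KO day 0 array (adjusted p from 0.0692 to 0.147).

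The day 4 changes themselves differed between genotypes in Tbx3 alone of 36 members (2.78%, against 3.95% of all genes, with 2.15% higher, 1.81% lower and 0.807% at 2-fold or more). KO and WT cells thus stood 0.91 apart in Tbx3 at day 0 and 0.30 apart at day 4. The 5 genes whose levels over the 12 arrays were most like those of Tbx3, by Pearson correlation, were Twist2 (0.99), Dusp9 (0.99), Cck (0.99), Enah (0.98) and Chst11 (0.98). These coefficients describe 3 arrays of each of 4 groups and read group differences and spread within groups together.

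**Figure D4:**
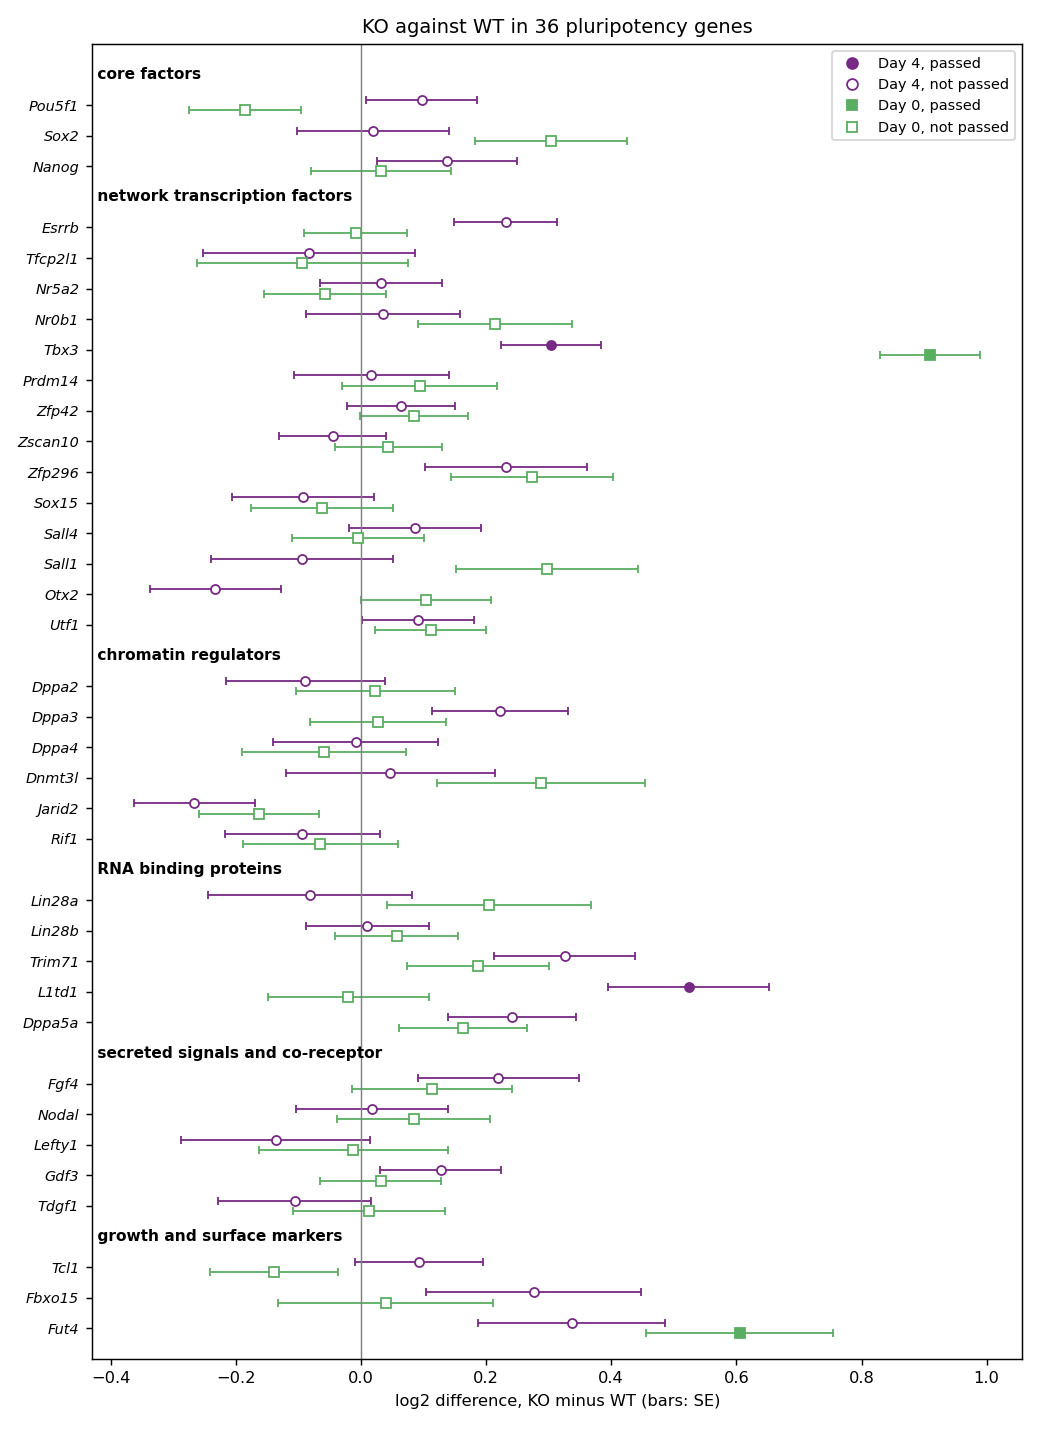
Log2 difference between KO and WT cells at day 4 (circles) and at day 0 (squares) for the 36 measured members, by role; bars are SE from the model with n = 3 arrays per group, and filled symbols passed an adjusted p of 0.05. Tbx3 is filled on both days, at 0.30 at day 4 and 0.91 at day 0, L1td1 at day 4 alone and Fut4 at day 0 alone.

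Genes around the network passed in both directions. Of 28 genes of the LIF, BMP, Wnt, FGF and activin inputs with Klf and Myc partners, 3 rose and 8 fell in KO cells, and 6 rose and 9 fell in WT cells. Over all genes 13.8% rose and 16.9% fell in KO cells, and 11.1% rose and 11.7% fell in WT cells. Besides Klf4 and Myc, the BMP effector Smad1 fell by 0.57 and the activin effector Smad2 by 0.68 in KO cells (adjusted p = 7.33e-05 and 0.000773). In WT cells the naive-state factors Klf5 and Klf2 fell by 0.76 and 0.82 (adjusted p = 0.00119 and 0.00234). These are the genes with the smallest p in each genotype and are not shown to be particular to it. By limma 0 of the 28 differed between genotypes in their day 4 change, against 3.95% of all genes.

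Of 30 measured cofactors of Pou5f1, Sox2 and Nanog, 7 rose and 8 fell in KO cells (13.8% and 16.9% of all genes), and 9 rose and 2 fell in WT cells (11.1% and 11.7% of all genes). The methylcytosine dioxygenases Tet2 and Tet1 rose in both, Tet2 by 0.90 ± 0.11 in KO and 1.06 ± 0.11 in WT cells, and Tet1 by 0.81 ± 0.10 in KO and 0.70 ± 0.10 in WT cells (adjusted p at most 0.000234). In KO cells the ETS factor Etv5 rose by 1.06 ± 0.11 (adjusted p = 1.53e-05) and the corepressor Trim28 fell by 0.79 ± 0.08 (adjusted p = 1.43e-05). Both differed between genotypes in their day 4 change, Trim28 by -0.81 ± 0.11 (adjusted p = 0.00316) and Etv5 by 0.79 ± 0.15 (adjusted p = 0.0158).

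At day 4, 14 of these 30 cofactors were lower and 3 higher in KO than in WT cells, against 12.4% of all genes lower and 8.34% higher. Among them were Mbd3, a subunit of the NuRD repressor complex (-0.78 ± 0.11, adjusted p = 0.000475), Trim28 (-0.76 ± 0.08, adjusted p = 0.000104) and Mybl2, a cell cycle factor (-0.62 ± 0.11, adjusted p = 0.00198). In a fit to the day 4 groups alone 8 of the 30 passed, and the share of all genes in that fit is not given here. The list mean was 7.76, 7.68 and 7.75 in the KO day 4 arrays, against 7.86, 7.91 and 7.998 in the WT day 4 arrays. These groups did not overlap. At day 0 the list mean was also lower in KO arrays (7.71 to 7.72) than in WT arrays (7.77 to 7.79), again without overlap. By limma 2 of the 30 passed at day 0, both lower in KO cells, against 3.12% of all genes lower.

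Of 16 early surface and epithelial markers of reprogramming, 3 rose and 1 fell in KO cells (13.8% and 16.9% of all genes), and 5 rose and 1 fell in WT cells (11.1% and 11.7% of all genes). The integrin subunit Itgb4 rose by 2.52 ± 0.16 in KO and 2.21 ± 0.16 in WT cells (adjusted p = 4.96e-07 and 1.62e-06). The tetraspanin Cd9 rose by 0.99 ± 0.08 in KO and 0.44 ± 0.08 in WT cells, and this difference passed (0.55 ± 0.12, adjusted p = 0.0253). Cdh1, E-cadherin, rose by 1.05 ± 0.19 in WT cells (adjusted p = 0.00146) and was lower in KO than in WT cells at day 4 (-0.79 ± 0.19, adjusted p = 0.0119). Its change in KO cells did not pass, nor did the difference between the changes. Averaged over both genotypes Cdh1 rose by 0.71 ± 0.14 (limma adjusted p = 0.00103). The epithelial keratin Krt18 fell in both, by 0.50 ± 0.10 in KO and 0.92 ± 0.10 in WT cells.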

How the data were processed

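Total RNA of 12 fibroblast samples was measured on 1-colour Affymetrix whole-transcript arrays. The authors deposited log2 values per probe set (1.33 to 13.35), made with Affymetrix Expression Console per the submitters' processing notes. How background and normalization were handled is not given in the sources used here. No normalization was added. Of 41345 probe sets 23521 had 1 gene symbol, 1814 several and 16010 none; the highest probe set by mean stood for each of the 1082 genes with several, and 22180 genes were tested. Symbols were found in RefSeq for 99.82%. The table held 0 columns of other samples.

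A limma 3.58.1 model (R 4.3.3) of 4 group means, without covariates, used all 12 arrays and had 8 residual and 4.56 prior degrees of freedom. Two-sided moderated tests were adjusted by Benjamini-Hochberg over all genes, with a threshold of 0.05, for 6 comparisons: the day 4 change in KO cells, in WT cells and averaged over both, KO against WT on either day, and the KO minus WT difference of those changes. Errors are SE of the model, and 95% intervals are not adjusted. The model was tested on simulated data. The number of arrays limits the precision, and arrays carry no count depth. The labels name no batch, and a batch that coincides with a group cannot be told apart from it.

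The members and lists were chosen with earlier results of these data known. Every member is named by role, with array levels for those past the threshold in any comparison and for Pou5f1, Sox2 and Nanog. Of each pathway list, up to 4 called genes per comparison, by smallest p, are eligible. Alternatives were leaving out each array, a 2-fold minimum, dropping genes below the 25th percentile of level, quantile normalization, median centring, averaged probe sets, a trended robust prior, array weights, fitting only the compared groups, and a replicate block. Promoter motifs were searched with Python 3.11.15.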

Additional observations from a re-analysis of the deposited data

Results flagged for a closer look

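Tbx3 stood out because its day 4 change differed between the genotypes by the test of the difference itself: the change in KO cells minus that in WT cells was -0.61 ± 0.11 (SE, limma adjusted p = 0.0127). Its fall was 1.15 in KO cells and 0.54 in WT cells on the log2 scale. The difference was -0.62 without WT day 4 array 1 (adjusted p = 0.00806).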

How the results depend on the processing

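Of 37 calls on members, 26 held under every alternative other than a 2-fold minimum, and no call changed sign. That minimum left 3: Tbx3 and Fbxo15 in KO cells and Fbxo15 in the average. It kept 2 of 11 members in KO cells, 0 of 8 in WT cells, 1 of 13 in the average, and 0 for KO against WT at day 4, at day 0 and in the difference of changes. For KO against WT at day 4, 4 members passed with the filter on low genes (Esrrb and Trim71 added) and 1 in the compared groups alone. Leaving out each array in turn gave 7 to 11 members in KO cells (7 without KO day 0 array 3), 6 to 9 in WT cells, 11 to 13 in the average, 0 to 6 for KO against WT at day 4, 1 to 2 at day 0 and 1 to 2 for the difference. The uncalled change of Nanog in WT cells ran from -0.026 (without WT day 4 array 3, adjusted p = 0.915) to 0.18, and that of Sox2 in KO cells from -0.20 to 0.056 (without KO day 0 array 1, adjusted p = 0.746). Lin28a averaged over both genotypes ran from -0.39 to -0.20 on leaving out 1 array, smallest in size without KO day 4 array 2 (adjusted p = 0.0556), and lost its call without any 1 of 9 arrays. Of the LIF, BMP and Wnt list, 6 of 28 members differed between KO and WT cells at day 4, against 20.7% of all genes. In the compared groups alone 1 did, and without WT day 4 array 1 there were 11. Of the early surface list 4 of 16 differed, and 2 in the compared groups alone. The shares of all genes under these alternatives are not given here. The cause of these shifts was not tested. The replicate block gave 11 members in KO cells, 9 in WT cells (Nr5a2 added), 13 in the average, 2 at day 4, 2 at day 0 and 1 for the difference. Of 18 correlations between same-numbered arrays 2 were over 0.1, both between KO and WT day 4 arrays (0.18 for array 2 and 0.12 for array 3, against -0.013 for array 1). Pairs of different numbers ran from -0.20 to 0.12, the highest between WT day 4 array 3 and KO day 4 array 1. Arrays were closest to their own number in 9 of 36 checks, each among 3 arrays. Since not every same-numbered pair passed 0.1, the numbers were not taken as pairs. Of 36 members, 17 had mean levels no higher than the 95th percentile of olfactory receptor genes, where changes are hard to read.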
